A study of Mus musculus with 21 samples.

Results

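Ter119+CD71+ spleen cells of anemic mice that carried CD45 were compared with those of anemic mice that did not, across all genes of the deposited expression table. The libraries were taken by their labels, 3 of anemia CD45+ cells and 3 of anemia CD45- cells, which makes 6 of the 21 libraries of the series. The table lists 14273 genes, and 11195 of them had values high enough to be tested. Ter119 is an antigen of the erythroid lineage, CD71 is the transferrin receptor encoded by Tfrc, and CD45 is the leukocyte phosphatase encoded by Ptprc. Both groups came from spleens of C57BL/6 mice with anemia, carried Ter119 and CD71 by sorting, and differed by label in CD45 alone. How the anemia was produced, and the age and sex of the mice, are not given in the sources used here. The other libraries of the series hold the same CD45+ and CD45- sorts from tumor-bearing and from neonatal mice, and myeloid-derived suppressor cells of tumor-bearing mice. Whether replicates are separate animals or sorts is not labelled, and the p-values therefore rest on a spread among libraries that may be technical. The protocol for RNA extraction mentions retinas, although spleen is the labelled tissue, and Sag, a photoreceptor gene, stood at 1.83, 0.764 and 1.34 in CD45+ cells and at 0.427, 0.461 and 0.336 in CD45- cells.

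When oxygen supply falls, erythropoietin drives the expansion of erythroid progenitors, and in mice the spleen is a main site of this stress erythropoiesis. Maturing erythroblasts lose CD45 early, raise haem and globin synthesis under the control of GATA1, TAL1 and KLF1, divide a few more times and then discard nucleus and organelles. The spleen also holds lymphoid follicles and a red pulp rich in macrophages, and lymphocytes and myeloid cells carry CD45 throughout life.

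Each level given is a deposited value after its log2 was undone. The expression scale is not named in the sources used here, so levels are compared between libraries and not between genes, and a blank cell is written as listed at 0. Ptprc stood at 322, 372 and 477 in CD45+ libraries and at 3.3, 5.5 and 2.47 in CD45- libraries, so the groups lay far apart on the gene of the gate, which checks the labels and is no result. Tfrc stood at 115, 149.98 and 62.4 in CD45+ cells and at 562, 613 and 849 in CD45- cells. Transcripts of the transferrin receptor were therefore present in every CD45+ library, at lower levels than in every CD45- library. The log2 fold change of CD45+ over CD45- cells was 6.39 ± 0.39 for Ptprc and -2.68 ± 0.47 for Tfrc (SE; for Tfrc, limma with Benjamini-Hochberg adjusted p = 1.07e-04).

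The sum of all values lay between 227961 and 312622 in each library, and 13442 to 13564 genes had a value in a CD45+ library against 12301 to 12711 in a CD45- library. The files hold no read counts, so depth is unknown and no interval for counting error is given. The first principal component of the 6 libraries held 83.0% of the variance over 10013 genes and separated the CD45+ libraries (scores 73.9 to 104) from the CD45- libraries (-99.2 to -69.1). Replicate 3 stood apart from the other libraries of its group in both groups. On the second component, with 8.58% of the variance, CD45+ replicates 1, 2 and 3 scored 13.2, 7.89 and -10.8, and CD45- replicates 1, 2 and 3 scored 27.5, 18.5 and -56.3. The 4 adult globin genes made up 14.9%, 9.94% and 1.29% of the CD45+ libraries and 41.0%, 35.2% and 11.2% of the CD45- libraries, and mitochondrially encoded genes 0.140%, 0.407% and 0.665% of the CD45+ libraries and 0.000889%, 0.109% and 2.11% of the CD45- libraries. CD45+ replicate 3 therefore held the fewest globin transcripts of all 6 libraries and CD45- replicate 3 the most mitochondrially encoded ones. Counts of genes that passed without replicate 3 of both groups are given below, and the cause of the difference was not tested. In bulk samples, fewer cells of a type and less RNA per cell cannot be told apart.

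**Figure D1:**
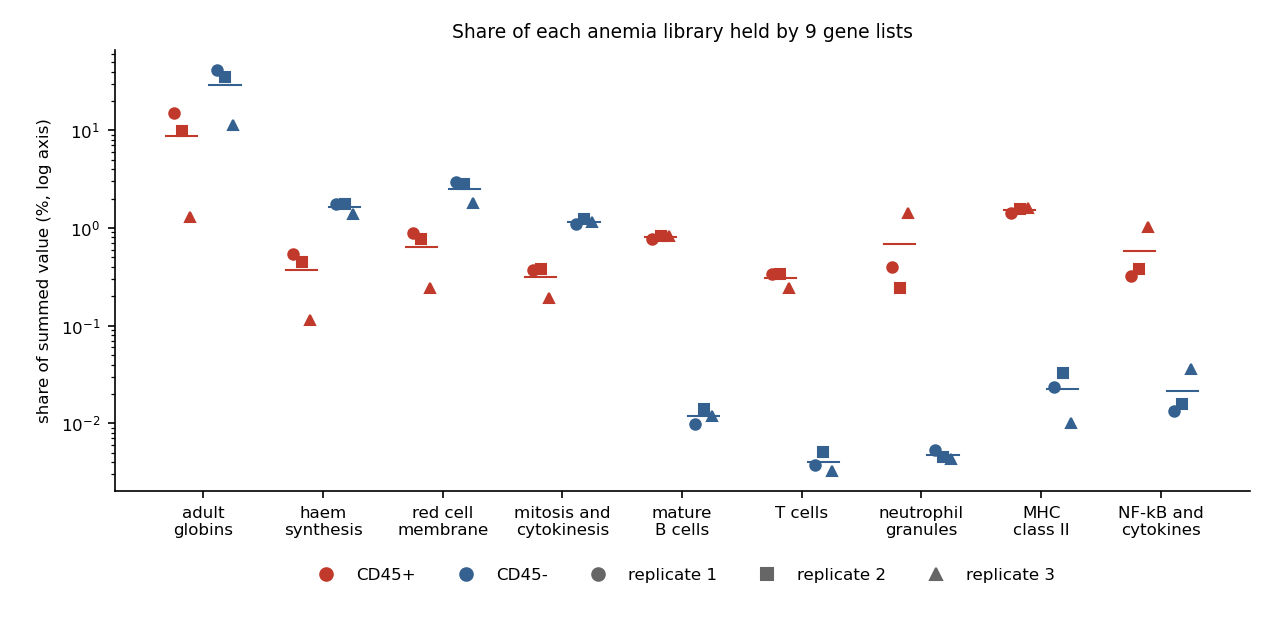
Share of the summed value of each anemia library held by 9 gene lists, in percent on a log axis, with CD45+ libraries in red to the left of CD45- libraries in blue, symbols for the replicate number and a line at the mean of each group. Erythroid and mitotic lists lie higher in CD45- cells, and leukocyte lists lie higher in CD45+ cells, where neutrophil granule genes reach 1.43% in replicate 3 against 0.399% and 0.241% in replicates 1 and 2.

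At an adjusted p of 0.05, 5310 of the 11195 tested genes were higher in CD45+ cells (47.4%) and 1267 were lower (11.3%), so that 58.7% passed in either direction. The 3 CD45+ libraries did not overlap with the 3 CD45- libraries for 7151 genes (63.9%). The median log2 fold change of all tested genes was 0.68, with quartiles of -0.03 and 1.47, so a gene with no change relative to the other genes lies near 0.68 and not at 0. The split between the directions depended on the scaling between libraries: median-ratio scaling, which brought that median to 0.04, gave 3278 higher and 2812 lower genes, and quantile normalization, with a median of -0.04, gave 2784 and 2905. A change of at least 2-fold passed for 4237 genes that were higher (37.8%) and 984 that were lower (8.79%), and a change of at least 16-fold for 307 and 6. Without replicate 3 of both groups, 5435 genes were higher and 1068 lower.

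**Figure D2:**
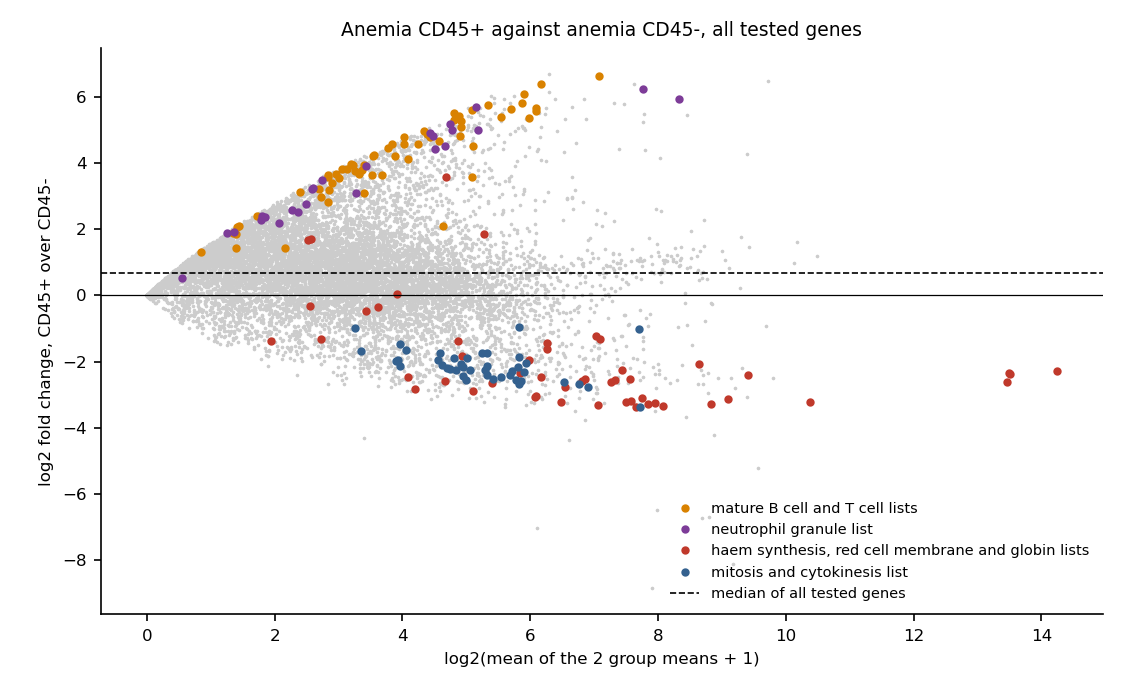
Each point is 1 of 11195 tested genes, placed by its mean level over both anemia groups (log2 scale) and its log2 fold change of CD45+ over CD45- cells. B and T cell and neutrophil genes lie along the upper edge, most erythroid and mitotic genes between about -1 and -4, and the dashed line marks the median of all tested genes at 0.68.

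The haem synthesis genes fell in CD45+ cells almost throughout the pathway. All 18 listed genes were tested, and 14 fell, 2 rose and 2 did not pass, with a median log2 fold change of -2.53 against 0.68 for all genes and against the 11.3% of all tested genes that fell. Alas2, the erythroid form of the enzyme that starts haem synthesis, stood at 419, 292 and 58.6 in CD45+ cells and at 1444, 1228 and 615 in CD45- cells. Every CD45+ library lay below every CD45- library, and CD45+ replicate 3 was the lowest. Its log2 fold change was -2.41 ± 0.54 (SE, adjusted p = 0.00104). Alas1, the form that most other tissues use, ran the other way, at 6.12, 6.45 and 10.7 in CD45+ cells and 1.28, 1.53 and 2.37 in CD45- cells. Its rise of 1.66 ± 0.42 (adjusted p = 0.00273) did not pass with median-ratio scaling, quantile normalization or a pseudocount of 10. Of the later enzymes, Fech, which inserts iron into the porphyrin ring, stood at 105, 74.2 and 15.8 in CD45+ cells and at 403, 351 and 183 in CD45- cells, a change of -2.54 ± 0.56 (adjusted p = 8.93e-04). Alad, Uros, Urod, Ppox and Fech, which cover steps up to the insertion of iron, fell by 2.46 to 3.04 on the log2 scale with no overlap between the groups. Slc25a37, the mitochondrial iron importer mitoferrin, stood at 264, 201 and 17 in CD45+ cells and 1246, 1079 and 472 in CD45- cells, and Abcb10, a mitochondrial transporter of erythroid cells, changed by -3.32 ± 0.72 (adjusted p = 7.93e-04). Under median-ratio scaling and under quantile normalization 16 of the 18 fell and none rose.

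The start regions of 3 of the genes with lower levels in CD45+ cells are shown because each holds the letters GATAA, the core of the sites that GATA1 binds. Windows of 250 bases before to 50 bases after the annotated start are from RefSeq on build GRCm38.p6 (not the build of the deposited values), read 5′ to 3′ on the strand of the gene, with the motif in capitals. In all 3 the motif lies on the opposite strand and so reads TTATC. They are Alas2 at chrX:150547167-150547466 (plus strand, motif 86 bases before the start), Klf1 at chr8:84901732-84902031 (plus strand, 80 bases before) and Rhag at chr17:40810899-40811198 (plus strand, 31 bases before).
Alas2: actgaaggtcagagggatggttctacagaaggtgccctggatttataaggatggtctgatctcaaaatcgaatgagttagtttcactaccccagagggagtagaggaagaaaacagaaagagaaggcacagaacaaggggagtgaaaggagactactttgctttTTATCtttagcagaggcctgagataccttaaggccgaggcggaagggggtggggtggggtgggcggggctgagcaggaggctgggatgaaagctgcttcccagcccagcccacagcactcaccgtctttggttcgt
Klf1: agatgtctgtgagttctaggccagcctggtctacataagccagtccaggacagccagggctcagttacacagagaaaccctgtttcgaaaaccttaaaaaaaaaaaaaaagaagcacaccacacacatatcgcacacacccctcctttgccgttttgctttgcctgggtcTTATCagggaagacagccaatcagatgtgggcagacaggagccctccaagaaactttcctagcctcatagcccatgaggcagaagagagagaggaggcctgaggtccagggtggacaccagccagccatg
Rhag: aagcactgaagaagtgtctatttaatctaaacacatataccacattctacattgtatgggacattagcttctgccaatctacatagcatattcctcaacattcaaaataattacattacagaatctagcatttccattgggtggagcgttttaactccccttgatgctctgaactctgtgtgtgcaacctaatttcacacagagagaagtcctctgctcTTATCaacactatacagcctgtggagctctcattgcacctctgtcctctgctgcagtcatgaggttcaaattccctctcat
GATAA on either strand occurred in 25.8% of 27025 RefSeq promoter windows and in 16.5% of the 8701 windows matched to tested genes. It occurred in 19.2% of the 754 windows of genes at least 2-fold lower in CD45+ cells and in 16.7% of the 3321 windows of genes at least 2-fold higher. The share was 3 of 14 (21.4%) for matched haem synthesis genes and 7 of 23 (30.4%) for matched red cell membrane genes. For matched genes of cells outside the lineage it was 6 of 23 (26.1%) in the T cell list and 4 of 22 (18.2%) in the mature B cell list. A match describes these letters in this window and does not show a bound site.

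All 4 adult globin genes fell, with a median log2 fold change of -2.35, but their libraries mostly overlapped. Hbb-bs, a beta globin gene, stood at 7968, 5124 and 807 in CD45+ cells and at 26529, 20987 and 8194 in CD45- cells, the only globin whose groups did not overlap. Its CD45- replicate 3 lay just above CD45+ replicate 1. Hba-a1, an alpha globin gene, stood at 14307, 9260.5 and 959 in CD45+ cells and 45282, 37496 and 8990.3 in CD45- cells, with CD45- replicate 3 below CD45+ replicates 1 and 2. The changes were -2.37 ± 0.69 for Hbb-bs and -2.3 ± 0.88 for Hba-a1 (adjusted p = 0.00709 and 0.0329). None of the 4 passed under quantile normalization or with the 6 anemia libraries fitted alone, and 1 of 4 passed without CD45+ replicate 3, without CD45- replicate 1 or without CD45- replicate 2. The 2 alpha globin genes are near-identical copies, as are the adult beta genes, so their separate values are uncertain.

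Genes of the red cell membrane and its skeleton fell in CD45+ cells. Of 30 listed, 29 were tested, and 25 fell, 2 rose and 2 did not pass, with a median log2 fold change of -2.48. By comparison, 11.3% of all tested genes fell and 47.4% rose, with a median of 0.68. Slc4a1, the anion exchanger band 3 that anchors the skeleton, stood at 619, 467 and 35 in CD45+ cells and 3038, 2762 and 1022 in CD45- cells. CD45+ replicate 3 was again the lowest library and the groups did not overlap. The spectrin Sptb, ankyrin Ank1 and protein 4.2 (Epb42) fell by 3.22 to 3.28 on the log2 scale. The blood group proteins Rhd and Kel fell by 3.37 and 3.33. Rhag, the Rh-associated channel whose start region is printed above, stood at 61.8, 52 and 7.51 in CD45+ cells and 208, 195 and 147 in CD45- cells, a change of -2.58 ± 0.60 (adjusted p = 0.00147). Cd47, the signal that restrains macrophages from engulfing red cells, stood at 83.5, 78.8 and 69.6 in CD45+ cells and 228, 207 and 149 in CD45- cells, a change of -1.31 ± 0.28 (adjusted p = 8.40e-04). Add3, gamma adducin, rose instead, at 38.7, 36.3 and 64.1 in CD45+ cells and 2.23, 2.45 and 4.17 in CD45- cells.

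Among 27 erythroid transcription factors and cofactors, all tested, 15 fell, 6 rose and 6 did not pass, with a median log2 fold change of -1.62. The shares over all tested genes were 11.3% that fell and 47.4% that rose, so rises were less frequent in this list. Klf1, the erythroid Krüppel-like factor, stood at 19.8, 21.7 and 5.99 in CD45+ cells and 119, 117 and 140.2 in CD45- cells. Gata1 stood at 12.3, 10.5 and 4.26 in CD45+ cells and 58.5, 53.8 and 52.8 in CD45- cells. Both were lower in every CD45+ library, with CD45+ replicate 3 the lowest, and changed by -3.08 ± 0.38 and -2.59 ± 0.48 (adjusted p = 2.84e-06 and 1.86e-04). Tal1, Nfe2, Gfi1b, Sox6 and Hemgn, all part of the erythroid programme, fell by 2.57 to 3.30 on the log2 scale. Among those that rose, Nr3c1, the glucocorticoid receptor that sustains progenitor division under stress, stood at 28.8, 28.5 and 41.9 in CD45+ cells and 11.2, 12.2 and 14.1 in CD45- cells, a change of 1.32 ± 0.25 (adjusted p = 2.65e-04) that did not pass under median-ratio scaling. Bcl11a, a repressor of embryonic globin genes that B cells also express, stood at 19.2, 19.1 and 16.8 in CD45+ cells and 3.55, 3.89 and 12.7 in CD45- cells, and its rise of 1.52 ± 0.53 did not pass under either scaling, without CD45- replicate 1 or without CD45- replicate 2. Under median-ratio scaling none of the 27 rose and 18 fell, and 2 rose without CD45- replicate 1 or without CD45- replicate 2.

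Late maturation genes, which clear organelles and remodel the cytosol of the erythroblast, fell too: of 30 tested, 28 fell, 1 rose and 1 did not pass, with a median log2 fold change of -2.11. Among all tested genes 11.3% fell and 47.4% rose. Car2, carbonic anhydrase 2, stood at 276, 226 and 39.2 in CD45+ cells and 1325, 1157 and 983 in CD45- cells. Bnip3l, which directs the removal of mitochondria, stood at 80.4, 64.7 and 34.1 in CD45+ cells and 251, 228 and 146 in CD45- cells. The groups did not overlap for either gene, and changes were -3.07 ± 0.59 and -1.83 ± 0.31 (adjusted p = 2.57e-04 and 7.68e-05). Trim58 and Xpo7, which take part in nuclear loss and nuclear opening, fell by 2.83 and 2.57. Alox15, a lipoxygenase named for its role in rabbit reticulocytes that eosinophils and macrophages of the mouse also express, was the member that rose, at 1.74, 1.22 and 0.491 in CD45+ cells and listed at 0 in every CD45- library.

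Genes of iron and haem transport divided. Of 20 tested, 6 rose, 6 fell and 8 did not pass, with a median of -0.06 that turned positive without CD45+ replicate 1, without CD45+ replicate 2 or without CD45- replicate 3. Over all tested genes 47.4% rose and 11.3% fell. The number that rose was 3 without CD45+ replicate 3 or without CD45- replicate 1, 2 under median-ratio scaling and 3 under quantile normalization. Among the members that fell, Tfr2, a second transferrin receptor, and Steap3, the endosomal ferric reductase of erythroid cells, changed by -2.21 ± 0.35 and -2.31 ± 0.45, and Abcg2, a porphyrin exporter, stood at 35.9, 22.7 and 4.23 in CD45+ cells and 198, 184 and 174 in CD45- cells. Of those that rose, Hmox2, a constitutive haem oxygenase, stood at 13.2, 13.6 and 16.5 in CD45+ cells and 2.33, 3.54 and 5.82 in CD45- cells, a change of 1.71 ± 0.29 (adjusted p = 8.70e-05). Hmox1, the inducible form that degrades haem in macrophages, stood at 61.1, 46.9 and 158 in CD45+ cells and 23.5, 32.6 and 17.8 in CD45- cells, and its rise of 1.64 ± 0.59 did not pass without CD45+ replicate 3, without CD45- replicate 1, without CD45- replicate 3 or under median-ratio scaling. Slc40a1, the iron exporter ferroportin, overlapped between the groups at 22.6, 42.7 and 47.1 in CD45+ cells and 35.3, 41.5 and 39.5 in CD45- cells.

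Of 21 tested genes of the erythropoietin pathway 10 rose, 4 fell and 7 did not pass, a share near the 47.4% of all tested genes that rose. The median of 0.63 lay near the 0.68 of all tested genes, so neither is a result about the pathway, and under quantile normalization the median was -0.03 and 6 rose. Epor, the erythropoietin receptor, stood at 13, 11.7 and 1.68 in CD45+ cells and 63.2, 63.4 and 25.1 in CD45- cells. It fell by 2.61 on the log2 scale with CD45+ replicate 3 the lowest (adjusted p = 3.57e-04). Its downstream factors rose, with Stat5a at 13.3, 16.9 and 13.4 in CD45+ cells and 2.9, 2.64 and 7.18 in CD45- cells, and Stat5b at 21.2, 18.1 and 21.5 in CD45+ cells and 3.31, 3.77 and 7.97 in CD45- cells. The negative regulators that rose are also used widely by leukocytes: Ptpn6, the phosphatase SHP-1, stood at 134, 143 and 149 in CD45+ cells and 4.92, 7.79 and 11 in CD45- cells, and Sh2b3, the adaptor LNK, changed by 3.09 ± 0.23 (adjusted p = 7.64e-09). Fam132b, the hormone erythroferrone that lowers hepcidin, stood at 0.649, 1.79 and 1.21 in CD45+ cells and 8.07, 12.9 and 20.6 in CD45- cells, a change of -2.69 ± 0.49 (adjusted p = 1.80e-04). Cish, a feedback inhibitor, changed by -1.47 ± 0.45 (adjusted p = 0.0103), and Pim1, a survival kinase, overlapped at 58.5, 109.9 and 199 in CD45+ cells and 151, 100.2 and 114 in CD45- cells.

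Of 16 tested genes of stress erythropoiesis (17 listed), 13 rose, 0 fell and 3 did not pass, with a median of 1.2, and 6 rose under median-ratio scaling and 4 under quantile normalization. Of all tested genes 47.4% rose. Leukocyte markers rose in the same libraries (29 of 29 mature B cell, 34 of 34 T cell and 18 of 20 monocyte genes), and their part in the rise of these genes was not tested. Smad1, a mediator of BMP signals, stood at 3.3, 4.75 and 3.68 in CD45+ cells and 0.112, 0.246 and 0.0453 in CD45- cells. Hif1a, the oxygen-regulated factor, stood at 27.4, 28.3 and 56.3 in CD45+ cells and 1.78, 3.53 and 3.86 in CD45- cells. Both groups were apart in every library, with changes of 2.11 ± 0.22 and 3.2 ± 0.33 (adjusted p = 5.14e-07 and 3.22e-07). Kit, the stem cell factor receptor that marks early erythroid progenitors, stood at 6.7, 6.54 and 4.44 in CD45+ cells and 1.35, 1.81 and 5.69 in CD45- cells. CD45- replicate 3 lay within the range of the CD45+ libraries, and the difference of 0.95 ± 0.49 did not pass (adjusted p = 0.104), although it passed without CD45- replicate 3. Of 16 tested genes of early progenitors (20 listed) 9 rose, 1 fell and 6 did not pass, and among those that rose were Ly6a, which encodes Sca-1 and is also carried by lymphocytes, at 48.8, 28.1 and 33 in CD45+ cells and 0.376, 1.04 and 0.373 in CD45- cells, and Cd27, a receptor of T and B cells as well as progenitors, at 16.7, 12.1 and 3.51 in CD45+ cells and 0, 0.308 and 0 in CD45- cells. Sox4, a progenitor factor, was listed at 0 in every CD45+ library, and Mecom and Hoxa9 were under 0.25 in all 6 libraries. Of the early progenitor genes 5 of 14 tested rose under median-ratio scaling and 5 of 16 under quantile normalization. The number was 6 without CD45+ replicate 1, CD45- replicate 1 or CD45- replicate 2, and 11 without CD45- replicate 3. The share that rose lay near the 47.4% of all tested genes, so it is no result about progenitor genes.

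The amount of erythroid and mitotic transcript left in CD45+ cells was close between replicates 1 and 2 and lower in replicate 3. Among the 15 haem synthesis genes with a mean of at least 10 in CD45- cells, the median level in CD45+ replicates 1, 2 and 3 was 26.2%, 22.2% and 5.35% of the CD45- mean. For 26 red cell membrane genes it was 26.5%, 23.8% and 3.73%, and for 29 late maturation genes 32.6%, 28.8% and 10.2%. For 42 mitosis genes it was 27.8%, 27.1% and 10.8%. For 38 DNA replication genes it was 30.5%, 33.9% and 22.6%, so of these 5 lists DNA replication dropped least in replicate 3.

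**Figure D3:**
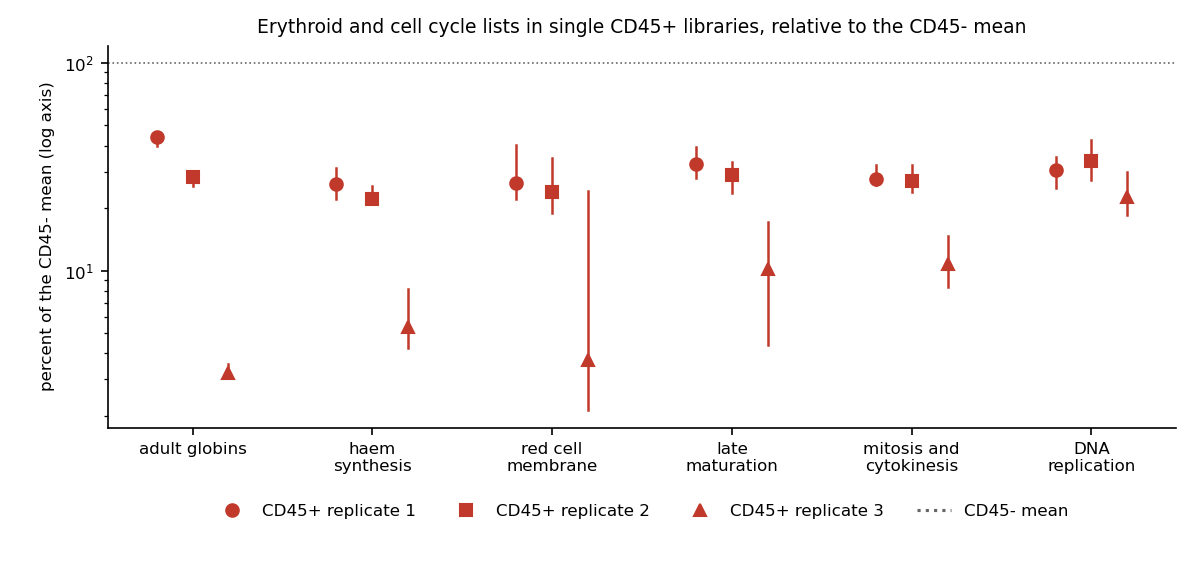
Level of list members in each CD45+ library as a percent of the CD45- mean (log axis), as the median over members with a CD45- mean of at least 10 and a line from the lower to the upper quartile. Replicates 1 and 2 lie between 22.2% and 44.2% for all 6 lists, and replicate 3 lies lower for each, from 3.21% for globins to 22.6% for DNA replication.

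Genes of mitosis and cytokinesis fell in CD45+ cells without exception: 42 of 42 tested fell, with a median log2 fold change of -2.16, and 41 fell without CD45+ replicate 3. By comparison, 11.3% of all tested genes fell. Ccnb1, cyclin B1, stood at 23.9, 19.98 and 7.07 in CD45+ cells and 92.5, 90.8 and 107 in CD45- cells. Aurka, a kinase of the spindle poles, stood at 14, 13.2 and 5.37 in CD45+ cells and 51.3, 49.8 and 44.6 in CD45- cells. Both were lower in every CD45+ library and changed by -2.59 ± 0.52 and -2.16 ± 0.34 (adjusted p = 3.78e-04 and 3.96e-05). Cdc20, which activates the anaphase-promoting complex, stood at 15.4, 14.2 and 4.97 in CD45+ cells and 46, 52.1 and 43.5 in CD45- cells, a change of -2.07 ± 0.41 (adjusted p = 3.69e-04). The largest fall in the list was that of Ncapd2, a condensin subunit, at 49.4, 43.3 and 16.9 in CD45+ cells and 382, 543 and 217 in CD45- cells. The Cdc20 start region (GRCm38.p6, chr4:118437294-118437593, minus strand) is shown because it holds 2 copies of CCAAT, the box bound by NF-Y, starting 53 and 8 bases before the start and given in capitals.
Cdc20: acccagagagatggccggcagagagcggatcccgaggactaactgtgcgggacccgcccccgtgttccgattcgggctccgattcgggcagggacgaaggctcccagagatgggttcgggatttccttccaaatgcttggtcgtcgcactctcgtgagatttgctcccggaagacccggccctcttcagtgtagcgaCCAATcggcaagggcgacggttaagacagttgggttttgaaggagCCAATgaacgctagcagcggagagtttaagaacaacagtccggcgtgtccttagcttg
CCAAT on either strand was present in 25 of 33 matched mitosis windows (75.8%), against 39.4% of tested genes and 37.9% of all windows. It was present in 48.3% of windows of genes at least 2-fold lower in CD45+ cells and 36.4% of those at least 2-fold higher.

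DNA replication genes fell as well, 36 of 41 tested with 0 that rose and 5 that did not pass, at a median of -1.62. The number that fell was 31 without CD45- replicate 3 and 27 without replicate 3 of both groups, where the median was -1.23. Among all tested genes 11.3% fell. Tk1, thymidine kinase, stood at 13.2, 15.3 and 7.18 in CD45+ cells and 85.3, 85.4 and 82.3 in CD45- cells. Mcm2, a subunit of the replicative helicase, stood at 26.4, 32.5 and 17.5 in CD45+ cells and 75.9, 88.8 and 118 in CD45- cells, with CD45- replicate 3 the highest of the 6. Changes were -2.79 ± 0.42 and -1.86 ± 0.33 (adjusted p = 2.71e-05 and 1.37e-04). Of 40 tested replication-dependent histone genes (46 listed) 18 fell and 0 rose, with a median of -2.49, and 6 fell without CD45+ replicate 3, 11 without CD45- replicate 2 and 10 without replicate 3 of both groups. Most histone genes have 1 exon, lack a poly(A) tail and share reads with near-identical copies, so their values are uncertain, and Hist1h2bf and Hist3h2ba were listed at 0 in every CD45+ library.

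Cyclins and inhibitors that act before replication divided: 10 of 25 tested (26 listed) fell, 6 rose and 9 did not pass, and 2 rose under either scaling. Over all tested genes 11.3% fell and 47.4% rose. Ccne1, cyclin E1, stood at 10.5, 12.4 and 5.48 in CD45+ cells and 39, 36.9 and 78.5 in CD45- cells. Btg1, an antiproliferative gene abundant in resting lymphocytes, stood at 68.7, 63.2 and 96.3 in CD45+ cells and 0.924, 4.6 and 2.99 in CD45- cells, a change of 4.43 ± 0.43 (adjusted p = 1.54e-07). Within families, members went opposite ways, as described below for the D cyclins and the retinoblastoma family.

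Lymphocyte genes rose throughout in CD45+ cells. All 29 tested mature B cell genes rose, with a median log2 fold change of 4.82 against 0.68 for all genes and against the 47.4% of all tested genes that rose. Cd79a, the Ig-alpha signalling chain of the antigen receptor, stood at 248, 278 and 271 in CD45+ cells and 2.13, 2.92 and 0.527 in CD45- cells. Pax5, the factor that holds B cell identity, stood at 45.9, 70.7 and 57.2 in CD45+ cells and 0.779, 1.14 and 0.322 in CD45- cells. The 3 CD45+ libraries lay close together for these genes and far above the CD45- libraries, with changes of 6.65 ± 0.50 and 5.08 ± 0.33 (adjusted p = 8.98e-09 and 2.01e-09). All 29 genes together held 0.808 ± 0.0318% of the summed value in CD45+ cells and 0.0120 ± 0.00212% in CD45- cells (SD, n = 3 each), with CD45+ replicate 3 at 0.833% beside 0.772% and 0.819% in replicates 1 and 2. Genes of mature follicular and marginal zone B cells were among them, with Fcer2a, which encodes CD23, at 49.5, 52.3 and 59.96 in CD45+ cells and 0.211, 0.278 and 0.0776 in CD45- cells, and Cr2, which encodes CD21, at 141, 114 and 143 in CD45+ cells and 2.39, 3.34 and 0.437 in CD45- cells. Of 10 genes of B cell precursors 5 passed the filter on low values, 2 rose and 3 did not pass, and 1 rose without CD45+ replicate 1 or without CD45+ replicate 2. All 9 tested plasma cell genes (10 listed) rose, and Jchain, the joining chain of secreted antibodies, varied between libraries, at 409.7, 92.6 and 46 in CD45+ cells and 3.15, 2.45 and 0.959 in CD45- cells.

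All 34 tested T cell genes rose, with a median of 3.78. Cd3e, a chain of the T cell receptor complex, stood at 34.8, 34.5 and 21.8 in CD45+ cells and 0.165, 0.144 and 0.0488 in CD45- cells. Cd4 stood at 23.8, 29.5 and 15 in CD45+ cells and 0.61, 0.958 and 0.961 in CD45- cells, and Cd8a stood at 19.1, 13.5 and 5.77 in CD45+ cells and 0.295, 0.19 and 0.0786 in CD45- cells. For all 3 genes replicate 3 was the lowest of the CD45+ libraries, and no gene of the list overlapped between the groups. Among all tested genes 63.9% did not overlap either, and 47.4% rose. Changes were 4.78 ± 0.44, 3.65 ± 0.44 and 3.4 ± 0.36 (adjusted p = 1.06e-07, 2.00e-06 and 5.02e-07). Tcf7 and Lef1, factors of resting T cells, changed by 4.8 ± 0.46 and 4.24 ± 0.31, and Foxp3, the factor of regulatory T cells, stood at 1.54, 2.01 and 1.14 in CD45+ cells and 0.02, 0.0439 and 0 in CD45- cells. All 17 tested genes of natural killer and cytotoxic cells (18 listed) rose at a median of 2.39, among them Gzma, a granzyme, at 19.2, 27.5 and 29.3 in CD45+ cells and 0, 0.288 and 0.12 in CD45- cells.

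Start regions of 3 lymphocyte genes are shown because each holds GGAAGT, a core of sites bound by ETS family factors. They are Cd79a (chr7:24897247-24897546, plus strand, motif 54 bases before the start), Cd3e (chr9:45009562-45009861, minus strand, 18 bases before, on the opposite strand and so reading ACTTCC) and Cd37, a tetraspanin of B cells (chr7:45238790-45239089, minus strand, 219 bases before on the gene strand and 25 bases before on the opposite strand). Windows are from RefSeq on GRCm38.p6, with the motif in capitals.
Cd79a: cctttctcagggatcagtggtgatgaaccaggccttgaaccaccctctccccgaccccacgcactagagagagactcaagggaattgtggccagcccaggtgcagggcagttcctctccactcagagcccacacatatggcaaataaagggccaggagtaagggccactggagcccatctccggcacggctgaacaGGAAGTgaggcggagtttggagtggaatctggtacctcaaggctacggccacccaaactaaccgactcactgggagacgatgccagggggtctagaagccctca
Cd3e: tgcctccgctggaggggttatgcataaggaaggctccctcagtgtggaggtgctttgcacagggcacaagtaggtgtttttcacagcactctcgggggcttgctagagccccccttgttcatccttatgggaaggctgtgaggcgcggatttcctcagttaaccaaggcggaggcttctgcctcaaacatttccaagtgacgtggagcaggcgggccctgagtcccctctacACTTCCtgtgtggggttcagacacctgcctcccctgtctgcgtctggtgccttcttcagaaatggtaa
Cd37: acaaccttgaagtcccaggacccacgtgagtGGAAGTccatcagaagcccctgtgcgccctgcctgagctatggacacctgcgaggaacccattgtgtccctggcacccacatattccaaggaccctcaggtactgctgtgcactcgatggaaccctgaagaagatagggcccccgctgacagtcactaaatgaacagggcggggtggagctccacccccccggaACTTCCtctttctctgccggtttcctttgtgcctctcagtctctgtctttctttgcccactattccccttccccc
GGAAGT on either strand was present in 11 of 22 matched mature B cell windows (50%) and 10 of 23 matched T cell windows (43.5%), against 30.7% of tested genes and 24.1% of all windows. The share was 31.8% for genes at least 2-fold higher in CD45+ cells, near the 30.7% of tested genes, and 23.6% for genes at least 2-fold lower. Matched haem synthesis genes held it in 2 of 14 windows (14.3%) and red cell membrane genes in 2 of 23 (8.7%). Matches of all 3 motifs printed here were counted on both strands, and matches of different motifs were allowed to overlap. A match to any of them does not show a bound site, and the part of ETS factors in these values was not tested.

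Of 35 lineage factors of leukocytes 33 were tested, and 29 rose, 0 fell and 4 did not pass, with a median of 3.92. The share of all tested genes that rose was 47.4%, and their median was 0.68. Ets1 changed by 5.02 ± 0.41, Fli1 by 4.01 ± 0.26 and Spi1, which encodes PU.1, by 3.02 ± 0.33. Klf2, a factor of resting lymphocytes, stood at 104, 111 and 99.97 in CD45+ cells and 0.579, 0.913 and 0.382 in CD45- cells. Runx1 and Ikzf1, factors shared by leukocytes and erythroid cells, were among the 4 that did not pass, with Ikzf1 at 59.9, 54.2 and 62.1 in CD45+ cells and 30.4, 34.2 and 60.7 in CD45- cells, where CD45- replicate 3 overlapped with the CD45+ libraries.

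Antigen presentation rose with the lymphocyte genes. All 13 tested MHC class II genes rose, with a median of 4.86, and held 1.54 ± 0.0869% of the summed value in CD45+ cells and 0.0223 ± 0.0115% in CD45- cells (SD, n = 3 each). Cd74, the invariant chain, stood at 1594, 1772 and 1634 in CD45+ cells and 25.5, 31.8 and 6.61 in CD45- cells. Ciita, the master regulator of the class, stood at 33.1, 34.3 and 28 in CD45+ cells and 0.87, 1.15 and 0.304 in CD45- cells. The groups were apart for all 13, and changes were 6.47 ± 0.59 and 4.24 ± 0.36 (adjusted p = 9.09e-08 and 3.52e-08). For comparison, the groups were apart for 63.9% of all tested genes, and 47.4% of all tested genes rose. Of 20 class I genes 19 rose, at a median of 2.71. H2-K1, a classical class I chain, stood at 443, 562 and 472 in CD45+ cells and 18, 30.4 and 34.1 in CD45- cells, and B2m, the chain shared by all class I molecules, at 483, 662 and 589 in CD45+ cells and 118, 203 and 134 in CD45- cells, so class I transcripts were also present in every CD45- library. The changes were 4.16 ± 0.30 for H2-K1 and 1.95 ± 0.37 for B2m (adjusted p = 5.71e-09 and 2.26e-04). Class I genes share long stretches of sequence, so values of single loci are uncertain.

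**Figure D4:**
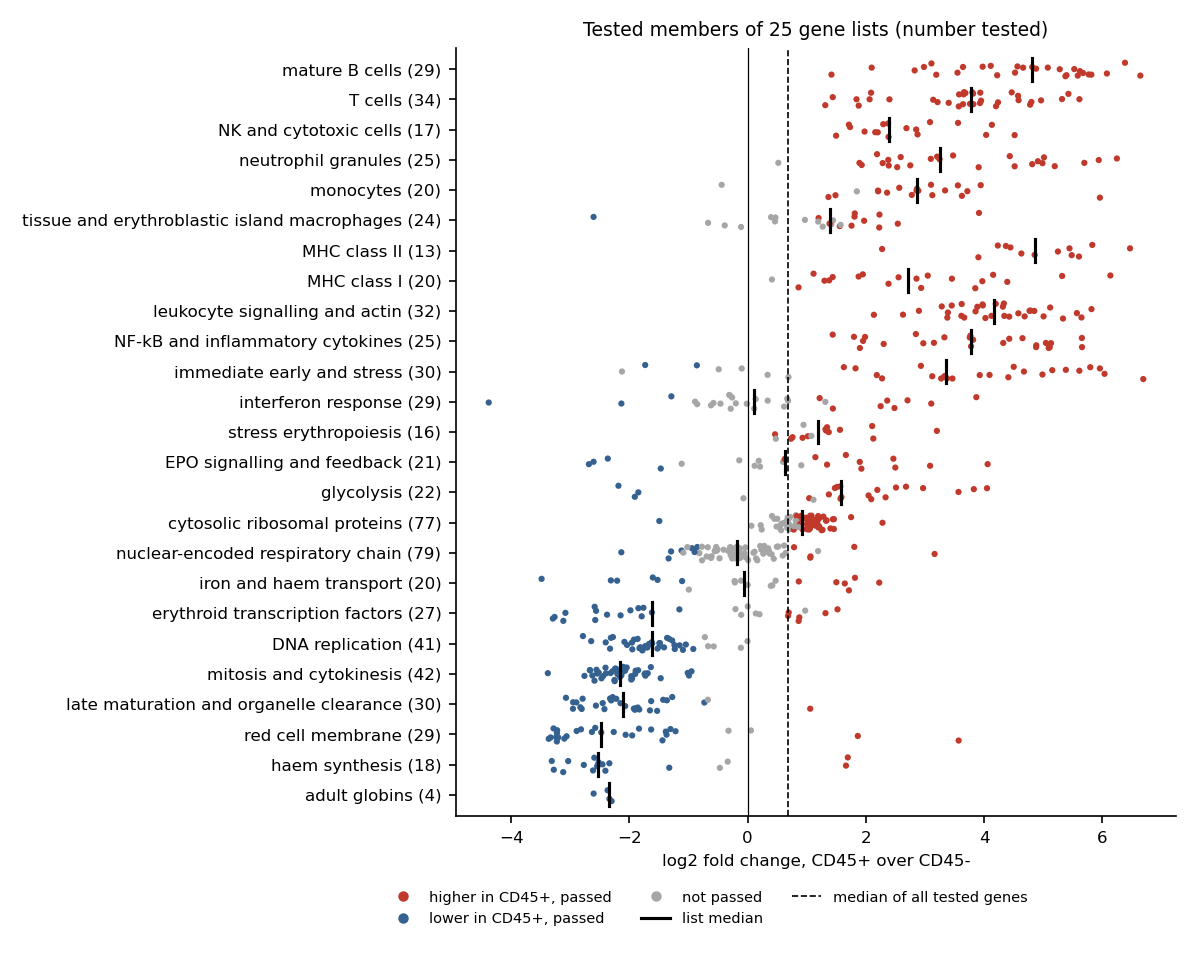
Log2 fold changes of CD45+ over CD45- cells for the tested members of 25 gene lists, with members that were higher in red, lower in blue and not passed in grey, a black bar at each list median, a solid line at 0 and a dashed line at the median of all tested genes (0.68). Lymphocyte, MHC class II and leukocyte signalling lists lie wholly to the right, mitosis wholly to the left, and iron transport, interferon response and respiratory chain genes straddle 0.

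Genes of neutrophil granules rose, 24 of 25 tested (26 listed), with a median of 3.25, and several varied strongly between the CD45+ libraries. Among all tested genes 47.4% rose. S100a9, a calcium-binding protein abundant in neutrophils, stood at 287, 167 and 1446 in CD45+ cells and 6.29, 6.02 and 4.88 in CD45- cells. Csf3r, the receptor for G-CSF, stood at 11.6, 9.66 and 126 in CD45+ cells and 0.12, 0.184 and 0.0594 in CD45- cells. CD45+ replicate 3 was several times above replicates 1 and 2 for both, whereas Ltf, the granule protein lactoferrin, stood at 60.1, 31.1 and 62.1 in CD45+ cells and 0.735, 0.307 and 0.103 in CD45- cells, and Camp, another granule protein, at 55.3, 31.9 and 35.3 in CD45+ cells and 0.627, 0.446 and 0.0461 in CD45- cells. Changes were 5.94 ± 0.79 for S100a9 and 5.2 ± 0.32 for Ltf (adjusted p = 6.28e-06 and 1.16e-09). Of the azurophil granule genes, made by promyelocytes, Mpo stood at 12.9, 12 and 5.28 in CD45+ cells and 0.152, 0.0622 and 0.0797 in CD45- cells, and Ctsg at 3.36, 3.27 and 1.75 in CD45+ cells and at 0 in every CD45- library.

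Of 20 monocyte genes 18 rose, with a median of 2.86. Csf1r, the receptor for M-CSF, stood at 23.9, 26.8 and 69.4 in CD45+ cells and 1.66, 3.52 and 1.15 in CD45- cells, and Ly6c2 at 17.5, 15.8 and 14 in CD45+ cells and 0.0593, 0.158 and 0.0398 in CD45- cells. Csf1r was highest in CD45+ replicate 3 and Ly6c2 was not, and the groups were apart for both (changes 3.63 ± 0.61 and 3.95 ± 0.25, adjusted p = 7.53e-05 and 1.24e-09). Genes of tissue and erythroblastic island macrophages, which adhere to erythroblasts through VCAM1, were less uniform: of 24 tested 11 rose, 1 fell and 12 did not pass, with 3 that rose under median-ratio scaling, 2 under quantile normalization and 6 without CD45- replicate 3 or without replicate 3 of both groups. The share that rose lay near the 47.4% of all tested genes, so it is no result about macrophage genes. The member that fell was Epor, the erythropoietin receptor described above. Vcam1 stood at 40.2, 53 and 28.2 in CD45+ cells and 8.14, 10.4 and 5.05 in CD45- cells, and Cd5l, a secreted macrophage protein, at 12.5, 17.5 and 10.1 in CD45+ cells and 3.21, 5.49 and 1.32 in CD45- cells. The whole list held 0.138 ± 0.0160% of the summed value in CD45+ cells and 0.0585 ± 0.0129% in CD45- cells (SD, n = 3 each). It includes Epor and Slc40a1, whose CD45- levels are given above, so this share does not measure macrophage transcripts alone. Vcam1 and Cd5l had values in every CD45- library, and the part of macrophages in the CD45- profile was not tested. C1qa, a complement chain of macrophages, overlapped at 28.1, 10.4 and 17.8 in CD45+ cells and 5.61, 10.9 and 3.18 in CD45- cells. The change of Vcam1, 2.23 ± 0.74, did not pass under either scaling, without CD45+ replicate 2 or without CD45- replicate 3.

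Of the other cell types of the spleen, 15 of 16 tested dendritic cell genes (17 listed) rose at a median of 2.22, and Clec9a, a receptor of cross-presenting dendritic cells, stood at 6.14, 4.99 and 3.78 in CD45+ cells and 0.33, 0.257 and 0.0855 in CD45- cells. Of 15 tested genes of mast cells, basophils and eosinophils (17 listed) 6 rose and 9 did not pass (10 rose without CD45+ replicate 3 and 3 under quantile normalization), and Prg2, an eosinophil granule protein, stood at 16.7, 15.4 and 2.12 in CD45+ cells and 0.492, 0.296 and 0.141 in CD45- cells. Of 18 tested megakaryocyte and platelet genes (21 listed) 4 rose, 2 fell and 12 did not pass (none fell without CD45+ replicate 2, CD45+ replicate 3, CD45- replicate 1 or replicate 3 of both groups, 1 fell without CD45- replicate 2, and 2 rose and 5 fell under quantile normalization), and Pf4, a platelet chemokine, overlapped at 3.52, 4.83 and 6.68 in CD45+ cells and 0.989, 1.38 and 4.48 in CD45- cells. Over all tested genes 47.4% rose and 11.3% fell. The mast cell share that rose and the megakaryocyte share that fell lay near these. Hepatocyte genes were at or near 0, with Alb, Ttr and Ahsg listed at 0 in all 6 libraries. Endothelial and stromal genes did not exceed 1.51 in any of the 6 libraries, apart from Eng, the co-receptor endoglin of endothelium and erythroid progenitors, which reached 7.67, and Pecam1, an adhesion molecule that leukocytes carry too, at 36.5, 39.6 and 46 in CD45+ cells and 0.499, 0.417 and 0.467 in CD45- cells.

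Signalling genes of leukocytes followed the same direction: all 32 tested genes of proximal signalling and the actin skeleton rose at a median of 4.16. So did 25 of 29 tested cytokine and chemokine receptors (30 listed, 1 fell) and 14 of 18 adhesion genes. By comparison, 47.4% of all tested genes rose, and their median was 0.68. Coro1a, an actin-binding protein of leukocytes, stood at 348, 284 and 296 in CD45+ cells and 4.78, 7.06 and 2.52 in CD45- cells. The groups were apart in every library, with a change of 5.82 ± 0.32 (adjusted p = 3.40e-10). Itga4, the integrin that binds VCAM1 and is used by erythroblasts and leukocytes alike, overlapped at 76, 63.8 and 100.2 in CD45+ cells and 68.8, 61.8 and 75.1 in CD45- cells. Cxcr4, the receptor for CXCL12, varied widely among CD45- libraries, at 11, 8.9 and 19.8 in CD45+ cells and 1.79, 60.3 and 29.2 in CD45- cells.

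All 25 tested genes of the NF-kB pathway and inflammatory cytokines rose, with a median of 3.78, and the cytokines named here were highest in CD45+ replicate 3. By comparison, 47.4% of all tested genes rose. Rel, an NF-kB subunit of lymphocytes, stood at 43.8, 36.3 and 78.8 in CD45+ cells and 0.371, 0.713 and 0.309 in CD45- cells, and Nfkbid, an inhibitor, at 61.1, 64.1 and 90.9 in CD45+ cells and 0.142, 0.482 and 0.71 in CD45- cells. Il1b, the cytokine interleukin 1 beta, stood at 20.7, 15.7 and 314 in CD45+ cells and 0.35, 0.27 and 0.839 in CD45- cells. Cxcl2, a chemokine that draws neutrophils, stood at 6.09, 10.1 and 268 in CD45+ cells and 0.0765, 0.0413 and 0.183 in CD45- cells. Il1b and Cxcl2 were many times higher in CD45+ replicate 3 than in replicates 1 and 2, while Rel and Nfkbid varied far less among the CD45+ libraries. Changes were 5.13 ± 0.32 for Rel and 5.05 ± 0.77 for Il1b (adjusted p = 1.16e-09 and 3.06e-05).

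Immediate early genes, which rise within minutes of a stimulus or of tissue handling, rose too: 23 of 30 tested (31 listed) rose, 2 fell and 5 did not pass, with a median of 3.35. Among all tested genes 47.4% rose and 11.3% fell. Fos stood at 38, 37.2 and 68 in CD45+ cells and 0.736, 0.83 and 1.77 in CD45- cells. Nr4a1, an orphan nuclear receptor induced by antigen receptors, stood at 72.6, 57.8 and 122.97 in CD45+ cells and 0.164, 0.669 and 0.14 in CD45- cells. Zfp36, an RNA-binding protein that destabilizes cytokine transcripts, had the largest rise of any named gene, at 100.2, 125 and 240.2 in CD45+ cells and 0.26, 1.06 and 0.0625 in CD45- cells (6.7 ± 0.41, adjusted p = 1.01e-09). These genes were high in all 3 CD45+ libraries and highest in replicate 3. Ppp1r15a, a phosphatase subunit of the stress response, fell with values of 121, 113 and 156 in CD45+ cells and 284, 271 and 168 in CD45- cells, a fall of 0.86 that did not pass under quantile normalization or when any of CD45+ replicates 1 and 2 or CD45- replicates 1 and 2 was left out.

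Interferon-stimulated genes did not move together. Of 29 tested 8 rose, 3 fell and 18 did not pass, with a median of 0.11 that was -0.54 under median-ratio scaling and -0.73 under quantile normalization. Over all tested genes 47.4% rose and 11.3% fell, so the share of the list that fell lay near that of all genes. Zbp1, a sensor of nucleic acids, stood at 15.8, 17.4 and 16.1 in CD45+ cells and 0.0941, 0.398 and 0.0959 in CD45- cells (3.87 ± 0.41, adjusted p = 5.43e-07). Rsad2, the antiviral enzyme viperin, ran the other way, at 46.9, 56.8 and 13.8 in CD45+ cells and 174, 192 and 103 in CD45- cells (-2.14 ± 0.63, adjusted p = 0.00758), and did not pass without CD45+ replicate 3. Irf7, a factor of the interferon response, overlapped at 23.8, 35.1 and 19.9 in CD45+ cells and 44.6, 71.9 and 17.8 in CD45- cells. Under median-ratio scaling 8 fell, and under quantile normalization 6. Without CD45+ replicate 3 none of the list fell, and without CD45- replicate 1 or 2 a single gene did.

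Because the series also holds myeloid-derived suppressor cells, mediators of immune suppression were examined. Of 22 listed genes 20 were tested, and 17 rose, 0 fell and 3 did not pass, with a median of 2.14. The share of all tested genes that rose was 47.4%. Cd274, which encodes the checkpoint ligand PD-L1, stood at 19.6, 21.3 and 73.2 in CD45+ cells and 0.918, 2.08 and 0.82 in CD45- cells. Tgfb1 stood at 27.7, 31 and 41.7 in CD45+ cells and 11.4, 5.16 and 8.85 in CD45- cells. Il10, an anti-inflammatory cytokine, stood at 1.82, 1.87 and 6.69 in CD45+ cells and was listed at 0 in every CD45- library. The groups were apart for all 3, and Cd274 and Il10 were highest in CD45+ replicate 3. Changes were 3.88 ± 0.50 for Cd274 and 1.9 ± 0.24 for Tgfb1 (adjusted p = 4.25e-06 and 4.14e-06). The arginases, which deplete arginine, differed: Arg1 was under 0.15 in all 6 libraries, and Arg2 stood at 0.826, 0.815 and 16.3 in CD45+ cells and 0, 0.0589 and 0.0248 in CD45- cells, with a change of 1.91 ± 0.63 that did not pass without CD45+ replicate 3. Lgals9, the ligand galectin 9, overlapped at 30.6, 22.1 and 23.5 in CD45+ cells and 15.8, 34.3 and 37.7 in CD45- cells, and Vsir, the checkpoint protein VISTA, at 15.9, 19.2 and 13.4 in CD45+ cells and 18.4, 14 and 4.72 in CD45- cells. All 7 tested subunits of the phagocyte NADPH oxidase (8 listed) rose at a median of 4.2, with Cybb, the catalytic subunit, at 53.5, 60.5 and 125 in CD45+ cells and 1.01, 1.95 and 0.714 in CD45- cells (5.11 ± 0.31, adjusted p = 8.12e-10). Many genes of both lists are expressed by B cells, T cells and myeloid cells, whose markers rose in the same libraries (29 of 29 mature B cell, 34 of 34 T cell and 24 of 25 neutrophil granule genes), and the part of those cells in these values was not tested.

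Several pairs of related genes went in opposite directions. These pairs were picked after their values were seen and are a description. Pkm, the pyruvate kinase of most tissues, stood at 85.5, 94.9 and 129.7 in CD45+ cells and 3.81, 5.79 and 6.28 in CD45- cells, whereas Pklr, the liver and red cell form, stood at 1.65, 2.08 and 2.37 in CD45+ cells and 6.48, 8.46 and 35.7 in CD45- cells. Hk2, a hexokinase, changed by 2.51 ± 0.35 and Hk1, the form of red cells, by -1.85 ± 0.31. Among survival factors of the BCL2 family, Mcl1 stood at 47.3, 54.8 and 89.2 in CD45+ cells and 15.7, 19 and 16.9 in CD45- cells, and Bcl2l1, which encodes BCL-XL, at 38.6, 30.2 and 5.61 in CD45+ cells and 135, 133 and 60.4 in CD45- cells. The groups did not overlap for any of these 6 genes, and Bcl2l1 was lowest in CD45+ replicate 3. Of the kinases that phosphorylate eIF2 alpha, Eif2ak3, which senses stress in the endoplasmic reticulum, changed by 3.07 ± 0.34, and Eif2ak1, which senses haem shortage, by -2.07 ± 0.35. Dnmt3a, a de novo DNA methyltransferase, changed by 3.01 ± 0.32 and Dnmt1, the maintenance form, by -1.1 ± 0.25. The adducins Add3 and Add2 changed by 3.57 ± 0.48 and -3.06 ± 0.53, and the retinoblastoma relatives Rbl2 and Rbl1 by 1.66 ± 0.27 and -1.16 ± 0.25. Ccnd3, the D cyclin of erythroblasts, stood at 33.8, 36.7 and 20.3 in CD45+ cells and 66.5, 81.5 and 67.1 in CD45- cells, and Ccnd2 at 12.3, 12.3 and 7.53 in CD45+ cells and 1.5, 2.25 and 8.73 in CD45- cells, where the rise of 1.42 ± 0.42 did not pass under either scaling or without CD45- replicate 1.

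**Figure D5:**
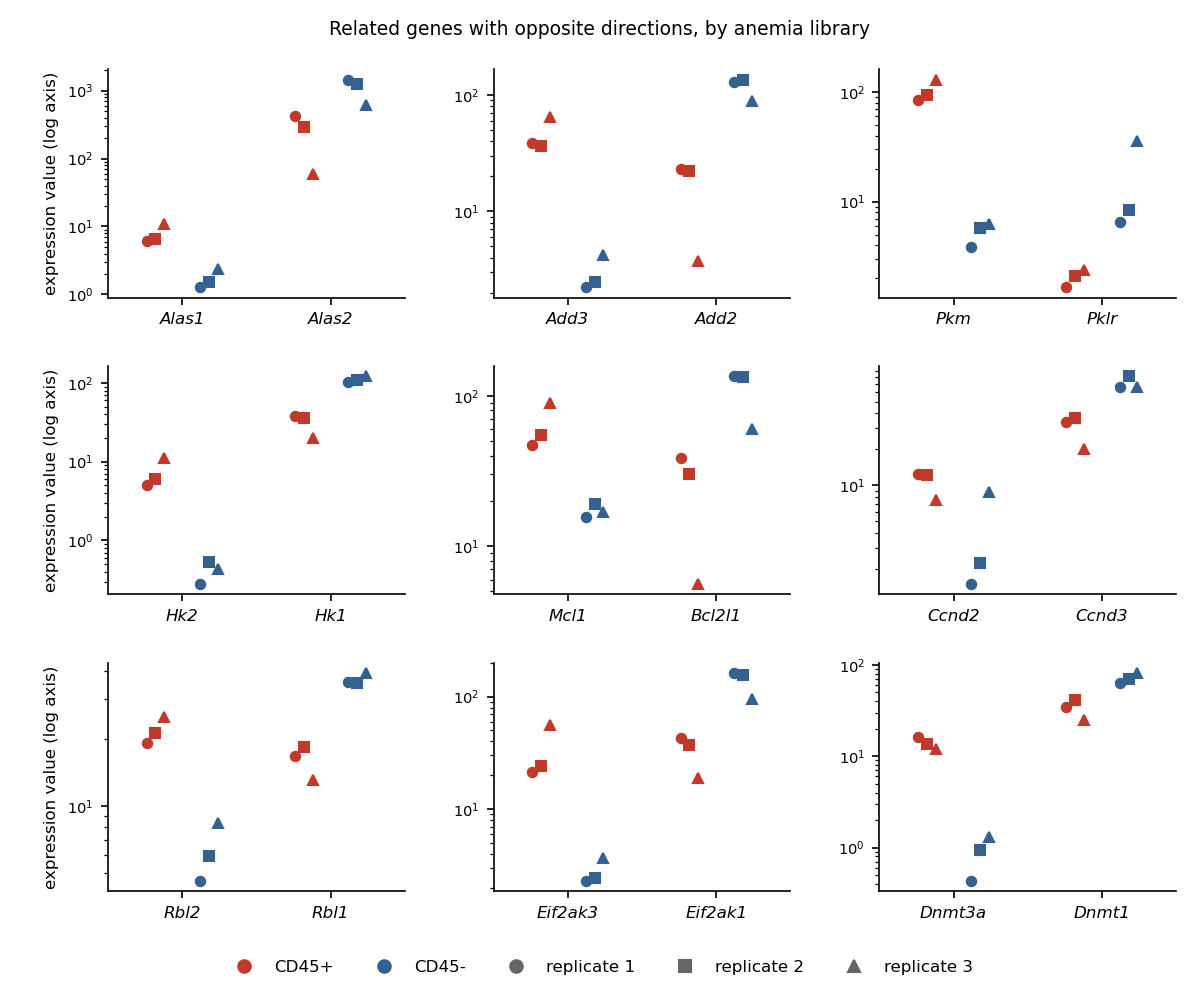
Level of 9 pairs of related genes in each anemia library (log axis), with CD45+ libraries in red to the left of CD45- libraries in blue and symbols for the replicate number. The first gene of each pair is higher in CD45+ cells and the second is lower, and only the libraries of Ccnd2 overlap, where CD45- replicate 3 reaches 8.73 against 7.53 to 12.3 in CD45+ cells.

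Beyond these pairs, glycolysis genes rose in CD45+ cells: of 22 tested (23 listed) 17 rose, 3 fell and 2 did not pass, with a median of 1.58. Over all tested genes 47.4% rose and 11.3% fell, which also applies to the counts below. The leukocyte lists rose in the same libraries, and their part in the glycolysis values was not tested. Slc2a1, the glucose transporter GLUT1, stood at 12.2, 13 and 13.8 in CD45+ cells and 0.145, 0.374 and 0.0458 in CD45- cells (3.57 ± 0.36, adjusted p = 2.51e-07), and Gpi1, which makes fructose 6-phosphate, at 57.4, 64.2 and 64.1 in CD45+ cells and 5.77, 7.55 and 15.3 in CD45- cells. Ldha, lactate dehydrogenase, stood at 56.7, 94.9 and 100.3 in CD45+ cells and 13.7, 20.8 and 99.6 in CD45- cells, so CD45- replicate 3 overlapped, and its rise of 1.38 ± 0.55 (adjusted p = 0.0395) did not pass without CD45+ replicate 2 or 3 or without CD45- replicate 1 or 2. Antioxidant enzymes leaned the other way, with 9 of 25 lower, 2 higher and 14 not passed (15 lower under median-ratio scaling, 4 higher without CD45- replicate 3 and 1 higher without CD45+ replicate 3, CD45- replicate 1 or CD45- replicate 2). Prdx2, the peroxiredoxin of red cells, stood at 188, 149 and 46 in CD45+ cells and 807, 694 and 611 in CD45- cells (-2.67 ± 0.46, adjusted p = 9.48e-05), and Gclm, which sets the rate of glutathione synthesis with Gclc, changed by -2.59 ± 0.40 (adjusted p = 3.07e-05). In the integrated stress response, where 4 of 21 rose and 6 fell (2 and 11 under either scaling, and 2 that rose without CD45- replicate 1), Atf4, its central factor, overlapped at 94.5, 106 and 136 in CD45+ cells and 96.1, 104 and 129 in CD45- cells, and Asns, asparagine synthetase, stood at 5.86, 8.16 and 5.95 in CD45+ cells and 18.2, 24 and 86.1 in CD45- cells (-2.19 ± 0.51, adjusted p = 0.00138), highest in CD45- replicate 3. Slc7a11, the cystine transporter, reached 125 in CD45+ replicate 3 alone, against 1.64 and 0.932 in CD45+ replicates 1 and 2 and 0.379, 0.621 and 2.73 in CD45- cells, and did not pass (adjusted p = 0.116).

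Genes of the ribosome depended on CD45- replicate 3. Of 77 cytosolic ribosomal protein genes 46 rose, 1 fell and 30 did not pass, with a median of 0.93 that lay close to the 0.68 of all genes. Over all tested genes 47.4% rose and 11.3% fell. They made up 10.1%, 11% and 10.2% of the CD45+ libraries and 2.73%, 3.54% and 11% of the CD45- libraries, so CD45- replicate 3 matched the CD45+ libraries. Without that library, and without replicate 3 of both groups, 70 of 77 rose, with the 6 anemia libraries fitted alone 5 rose, without CD45- replicate 1 18 rose, without CD45- replicate 2 20 rose, without CD45+ replicate 2 28 rose, and under median-ratio scaling 3 rose and 3 fell. Npm1, a nucleolar protein, showed the same pattern at 238, 272 and 321 in CD45+ cells and 79.9, 95 and 623 in CD45- cells, a difference of 0.7 ± 0.57 that did not pass (adjusted p = 0.304). Most respiratory chain genes (67 of 79 tested, 82 listed) and constitutive proteasome subunits (30 of 34) did not pass, and the list medians were -0.18 and -0.22. With median-ratio scaling 46 and 27 of them fell, and without CD45- replicate 3 both medians turned positive (0.21 and 0.16), with 16 respiratory chain genes and 6 proteasome genes that rose and 4 and 2 that fell. Without replicate 3 of both groups the numbers were 13 and 6 that rose and 4 and 2 that fell.

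Among named genes with at least 10 in the higher group and no overlap, the largest rises included, beside Zfp36, Cd79a and Cd74, Plaur, the urokinase receptor, at 70.8, 61 and 114 in CD45+ cells and 0.641, 0.0875 and 0.047 in CD45- cells. Apart from histones, the largest falls included Isg15, an interferon-induced ubiquitin-like protein, at 55.2, 1.02 and 2.76 in CD45+ cells and 193, 249 and 78.4 in CD45- cells, and Ctse, the aspartic protease cathepsin E, at 95.6, 90.3 and 11.6 in CD45+ cells and 784, 666 and 436 in CD45- cells. Isg15 passed narrowly (-4.38 ± 1.74, adjusted p = 0.0437) and did not pass without CD45+ replicate 2, without CD45+ replicate 3, without CD45- replicate 1 or without CD45- replicate 2, while Ctse changed by -3.67 ± 0.61 (adjusted p = 7.50e-05). At the other end lie genes near no change, counted without clone, locus and date symbols and repeat entries. Of these, 63 did not pass and had a 95% interval of the log2 fold change within -0.5 to 0.5. Hnrnpul2, an RNA-binding nuclear protein, was among them at 32.1, 41.2 and 36.6 in CD45+ cells and 33.1, 35.1 and 42.3 in CD45- cells, and Dctn2, a dynactin subunit, stood at 16.7, 19.2 and 21.6 in CD45+ cells and 21.1, 16.7 and 22.3 in CD45- cells, so these genes lay about 0.68 below the median of all genes, and both passed as lower in CD45+ cells under median-ratio scaling.

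To find where the CD45 contrast of anemic mice differed from that of the other states, the difference of contrasts was tested in the same fit of 18 libraries. The anemia contrast differed from the tumor contrast for 246 genes (2.20%), 44 higher (0.393%) and 202 lower (1.80%), and from the neonatal contrast for 776 genes (6.93%), 462 higher (4.13%) and 314 lower (2.80%). Both comparisons use the same anemia libraries. The count against tumor rested on single libraries: it was 1184 without tumor CD45+ replicate 3, 432 without anemia CD45+ replicate 3, and between 84 and 143 when any of these was left out singly: tumor CD45+ replicates 1 and 2, tumor CD45- replicates 1 and 2, anemia CD45+ replicates 1 and 2 and anemia CD45- replicate 2. The count against neonates was 502 and 498 without anemia CD45+ replicate 1 or 2, and 429 and 502 without neonatal CD45+ replicate 1 or 2.

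Neutrophil granule genes rose less with CD45 in anemic than in tumor-bearing mice, 12 of 25 with 0 the other way, and natural killer genes rose more, 7 of 17. Over all tested genes 1.80% had a lower and 0.393% a higher contrast. List counts for differences of contrasts were not repeated under other scalings or with single libraries left out. Olfm4, a protein of specific granules in a subset of neutrophils, stood at 0.907, 0.631 and 3.05 in anemia CD45+ cells and 0, 0.0509 and 0.0216 in anemia CD45- cells, against 92, 58.1 and 32.4 in tumor CD45+ cells and 0.635, 0.0633 and 0 in tumor CD45- cells. The difference of contrasts was -4.38 ± 0.52 (adjusted p = 4.15e-04). Gzma was high in anemia CD45+ cells, as given above, against 0.573, 0.588 and 2.54 in tumor CD45+ cells and 0.0788, 0 and 0 in tumor CD45- cells (difference 3.51 ± 0.56, adjusted p = 0.00354). Tnfrsf13c, the BAFF receptor of mature B cells, stood at 10.7, 9.81 and 13.8 in anemia CD45+ cells and 0.456, 1.19 and 0.65 in anemia CD45- cells, against 3.11, 2.37 and 12.9 in tumor CD45+ cells and 9.46, 20.4 and 7.03 in tumor CD45- cells (difference 3.9 ± 0.65, adjusted p = 0.00487).

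Against neonates the lymphocyte genes set the anemia contrast apart: 27 of 34 T cell genes, 8 of 29 mature B cell genes and 7 of 13 MHC class II genes had a higher contrast in anemia, while 8 of 15 genes of mast cells, basophils and eosinophils, 7 of 24 macrophage genes and 6 of 25 neutrophil granule genes had a lower one. Over all tested genes 4.13% had a higher and 2.80% a lower contrast. Fcer2a stood at 0.284, 0.0298 and 1.87 in neonatal CD45+ cells and 0.0292, 0 and 0 in neonatal CD45- cells, far below its level in anemia CD45+ cells given above (difference 4.9 ± 0.81, adjusted p = 0.00161). Epx, eosinophil peroxidase, stood at 1.84, 1.31 and 0.0586 in anemia CD45+ cells and at 0 in anemia CD45- cells, against 56.1, 114 and 62.5 in neonatal CD45+ cells and 0.256, 0.365 and 0.151 in neonatal CD45- cells (difference -4.96 ± 0.62, adjusted p = 1.90e-04). Slc2a1, which was below 0.4 in anemia CD45- cells, stood at 11.1, 7.22 and 6.12 in neonatal CD45+ cells and 14.7, 19.6 and 5.43 in neonatal CD45- cells, which overlap, and the difference of contrasts was 4.09 ± 0.51 (adjusted p = 1.77e-04). Of 18 haem synthesis, 29 red cell membrane, 27 erythroid transcription factor and 4 adult globin genes, 1 haem synthesis gene differed from the tumor contrast and none from the neonatal contrast, which does not show that the contrasts are alike.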

How the data were processed

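RNA was sequenced from libraries that were made with a TruSeq RNA kit from total RNA, per the labels' protocols. Bowtie 0.12.2 and the mouse build mm8 are named in the submitters' processing notes, with no parameters given in the sources used here. The authors deposited 1 table of log2 values for 14273 genes and 21 libraries, with no expression scale named. The log2 was undone, the 23668 blank cells (7.90%) were read as 0, the highest of the entries for each of 6 repeated symbols kept the symbol, and 22 symbols that a spreadsheet had turned into dates were kept in the fit and not named. Read depth is unknown. Of 86209 values under 1, 99.997% were whole multiples of 1e-06 (within 0.01 of a step), which reflects rounding and gives no read counts.

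Genes with at least 1 in at least 3 of the 18 Ter119+CD71+ libraries (11195) were fitted on log2(value + 1) with limma 3.58.1 and statmod 1.5.0 in R 4.3.3, with trend and robust options, 1 mean per group and Benjamini-Hochberg adjustment over all of them at 0.05. A fold change on this scale understates the change of low genes. The filter can be passed through the group where a gene is high, so counts over tested list members are a description. Contrasts were CD45+ minus CD45- in anemia and the difference of that contrast from the tumor and neonatal contrasts. An exact permutation test of 3 against 3 libraries cannot go below p = 0.10. Tables and figures were made with Python 3.11.15, pandas 2.3.3, numpy 2.4.6, scipy 1.17.1 and matplotlib 3.10.9.

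The 55 gene lists were chosen with earlier results of these data known. Named genes are the defining members of each list, the 3 members of each with the smallest adjusted p, the 12 largest changes in each direction among genes that passed, did not overlap and reached a mean of 10 in the higher group, the 6 largest differences in each direction per difference of contrasts, and the 12 genes nearest to no change. Some results are not reported here.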

Additional observations from a re-analysis of the deposited data

Results flagged for a closer look

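The CD45 contrast of anemic mice differed from that of tumor-bearing mice for 246 genes and from that of neonates for 776, by the test of the difference of contrasts in limma. Both use the same anemia libraries. Values in this section are the log2 contrast in anemia minus that in the other state.

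Against tumor, the contrast was higher in anemia for Tnfrsf13c (3.9 ± 0.65, SE, adjusted p = 0.00487) and Gzma (3.51 ± 0.56, adjusted p = 0.00354). It was also higher for Rph3al (2.35 ± 0.50), a regulator of exocytosis, Chd3 (2.25 ± 0.56), a chromatin remodeller, Ifngr2 (2.23 ± 0.51), a chain of the interferon gamma receptor, and Trp53bp1 (2.23 ± 0.52), a DNA repair protein, with adjusted p between 0.0191 and 0.0468. These 4 did not pass in 8, 16, 9 and 10 of the 21 or 22 alternatives. Rph3al and Trp53bp1 had lower means in tumor CD45+ than in tumor CD45- cells, at 3.41 against 17.4 and 10.2 against 54.5. Chd3 and Ifngr2 had higher means in tumor CD45+ cells, at 17.8 against 5.10 and 16.4 against 8.96. A higher contrast in anemia therefore need not mean a higher level in anemia CD45+ cells. The contrast was lower in anemia for Olfm4 (-4.38 ± 0.52), Prom1 (-3.96 ± 0.49), which encodes the stem cell antigen prominin 1, and Abca13 (-3.96 ± 0.46), a lipid transporter, and these passed in every alternative run for them. It was lower too for Ms4a3 (-4.71 ± 0.70), a gene of granulocyte progenitors, and for the granule proteases Ctsg (-4.38 ± 0.94) and Elane (-3.98 ± 0.90), which did not pass in 1, 6 and 11 of 21 alternatives. Elane stood at 6.65, 5.34 and 2.79 in anemia CD45+ cells and 0.173, 0.0926 and 0 in anemia CD45- cells, against 435, 329 and 81.3 in tumor CD45+ cells and 4.06, 2.5 and 0.185 in tumor CD45- cells.

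Against neonates, the contrast was higher in anemia for Jchain (5.12 ± 1.07), Fcer2a (4.9 ± 0.81), Cr2 (4.83 ± 0.99), Slc2a1 (4.09 ± 0.51) and the lymphocyte GTPases Gimap8 (4.04 ± 0.87) and Gimap6 (4.02 ± 0.74). It was lower in anemia for Olfm4 (-5.09 ± 0.52), Ms4a3 (-4.23 ± 0.70), the stefins Stfa1 (-5.07 ± 1.07) and Stfa3 (-4.07 ± 0.96) of granulocytes, and the eosinophil proteins Epx (-4.96 ± 0.62) and Prg2 (-4.91 ± 0.91). Adjusted p lay between 3.68e-05 for Olfm4 and 0.015 for Stfa3, and at most 2 alternatives ended the call for any of these 12 genes. The stefin genes are close copies of each other, so their separate values are uncertain. None of the named differences changed sign in the alternatives run.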

How the results depend on the processing

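The 5310 genes higher and 1267 lower in CD45+ cells became 3278 and 2812 under median-ratio scaling and 2784 and 2905 under quantile normalization. A minimum of 10 left 6194 genes to test, of which 2806 were higher and 1041 lower. Leaving out 1 anemia library gave 4413 to 5892 higher and 1021 to 1238 lower genes. The 246 genes that differed from tumor became 61 with a pseudocount of 0.1, 449 with 10, 115 of 6194 with a minimum of 10, 113 of 10036 without genes that have a blank, and 84 to 1184 without 1 library. The 776 that differed from neonates became 349 with a pseudocount of 0.1, 320 of 6194 with a minimum of 10, 384 of 10036 with no blanks, and 429 to 800 without 1 library. The cause was not tested. Sag turned to -0.33 under quantile normalization. Same-numbered libraries deviated together with r of 0.218, 0.0945 and 0.246 over 10013 genes, and CD45+ replicate 2 had a slightly higher r with CD45- replicate 1 (0.109). No label says what a number marks, so the numbers were not taken to pair the anemia libraries. What same-numbered libraries share was not tested. The tumor pairs had r of 0.1003, 0.163 and 0.259 and the neonatal pairs 0.200, 0.259 and 0.324. Replicate 3 had the lowest globin and histone shares in each of the 6 sorted groups. With the replicate block 5583 genes were higher and 1352 lower, and 287 and 931 differed from tumor and neonates. Unknown read depth limits what can be said of values near 0.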

Other observations

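Of all tested genes 47.4% rose in CD45+ cells over CD45- cells, and the lists that follow are read against that share. Of 26 tested lysosome and autophagy genes 18 rose, 2 fell (1 without CD45+ replicate 1, CD45+ replicate 3, CD45- replicate 1 or CD45- replicate 2) and 6 did not pass, with a median log2 fold change of 1.66. Ctsh, a cathepsin of lymphocytes and myeloid cells, stood at 52.4, 54.5 and 69.96 in CD45+ cells and 1.39, 2.26 and 1.24 in CD45- cells, and Tfeb, a regulator of lysosome genes, at 21.7, 20.4 and 15.9 in CD45+ cells and 0.871, 1.41 and 0.946 in CD45- cells. The groups did not overlap for either (changes 4.52 ± 0.35 and 3.29 ± 0.28, limma adjusted p = 1.38e-08 and 3.46e-08), whereas Map1lc3b, which coats autophagosomes, overlapped at 28.6, 29.2 and 29.3 in CD45+ cells and 43.4, 41.7 and 26.1 in CD45- cells. Of 18 innate pattern and Fc receptor genes 17 rose at a median of 2.97. Nlrp3, the sensor of the inflammasome, stood at 5.08, 5.57 and 66.1 in CD45+ cells and 0.0769, 0.209 and 0.15 in CD45- cells, highest in CD45+ replicate 3, and Casp1, the protease it activates, at 16.4, 17.7 and 23.2 in CD45+ cells and 0.864, 1.22 and 0.505 in CD45- cells. Of 21 tested genes of the BCL2 family and death receptors (24 listed) 12 rose, 1 fell and 8 did not pass, against 7 and 3 under quantile normalization, and that share lay near the 47.4% of all tested genes. Fas, a death receptor, stood at 5.59, 6.38 and 9.18 in CD45+ cells and 0.0537, 0 and 0.0237 in CD45- cells (2.95 ± 0.27, adjusted p = 8.62e-08).

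Of 22 chromatin and DNA methylation genes 11 rose, 5 fell and 6 did not pass, with a median of 0.48 that was -0.38 under median-ratio scaling, where 6 rose and 9 fell, and it too lay near the 47.4%. Tet2, which oxidizes methylcytosine, stood at 18.3, 21.2 and 34 in CD45+ cells and 0.511, 1.25 and 2.16 in CD45- cells, and Setd8, which methylates histone H4 and is needed for erythroid maturation in mice, at 19.4, 23.5 and 23.3 in CD45+ cells and 59.6, 66.3 and 63.5 in CD45- cells. Both pairs of groups were apart, and changes were 3.48 ± 0.30 and -1.48 ± 0.29 (adjusted p = 4.66e-08 and 3.87e-04). Of 170 tested solute carriers (243 listed) 83 rose, 27 fell and 60 did not pass, at a median of 0.70 that was -0.21 under quantile normalization, where 43 rose and 54 fell. These values lie near the 47.4% that rose and the median of 0.68 over all tested genes, so they are no result about the carriers. Slc28a2, a nucleoside carrier, stood at 25.8, 29.4 and 28.9 in CD45+ cells and 0.212, 0.42 and 0.125 in CD45- cells (4.54 ± 0.27, adjusted p = 7.53e-10). Slc7a5, which imports leucine, ran the other way at 27.6, 27.8 and 12.1 in CD45+ cells and 111, 109 and 65.2 in CD45- cells (-2.08 ± 0.36, adjusted p = 9.54e-05). In the table, 420 genes had a value in all 3 CD45+ libraries and a blank in all 3 CD45- libraries, and 17 the reverse.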
